A study of Mus musculus with 12 samples.

Results

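The genes described here are 8 enzymes and cofactors of neutral lipid hydrolysis, Pnpla2, Abhd5, Lipe, Mgll, Lipa, Lpl, Lipc and Lipg, chosen by gene name from the 54532 genes counted in each liver library. All 8 had at least 148 counts in every library and passed the filter on low counts. RNA was sequenced from whole livers of male mice homozygous for a floxed Pparg allele (PPARγflox/flox), in 4 groups of 3 libraries. At 8 weeks of age the mice were injected with an adeno-associated virus, AAV8, whose TBG promoter is active in hepatocytes. The virus carried Cre recombinase (labelled PPARγ-KO) or, in littermates, eGFP (labelled wild-type), and all mice then ate a fast-food diet (FFD) rich in saturated fat, cholesterol and sucrose, with glucose and fructose in the water, for 2 or 5 months. Wild-type therefore means floxed mice given eGFP virus, no group ate chow, and cells other than hepatocytes are expected to keep the allele. Nothing in the sources used here says which libraries came from separate animals, so the p-values measure the spread between these libraries.

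Lipolysis in a hepatocyte takes place at the surface of the lipid droplet, in the lysosome and, by secreted enzymes, on lipoproteins in the blood. Adipose triglyceride lipase, the product of Pnpla2, removes the first fatty acid from triglyceride and needs the coactivator ABHD5 (also called CGI-58), while G0S2 and HILPDA inhibit it. Hormone-sensitive lipase (Lipe) and monoacylglycerol lipase (Mgll) then cleave the diglyceride and the monoglyceride. Lysosomal acid lipase (Lipa) works at acid pH on the triglyceride and cholesteryl ester of endocytosed lipoproteins and engulfed droplets, so the name neutral lipase describes its substrate and not its pH. Lipoprotein lipase (Lpl), hepatic lipase (Lipc) and endothelial lipase (Lipg) form a secreted family that acts on triglyceride-rich and high-density lipoproteins. PPARγ is a lipid-activated transcription factor that binds DNA with RXR at repeats of a short hexamer.

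Promoter sequences are printed for 3 members as context for their values. RefSeq windows of 300 bases, 250 before and 50 after a start site (GRCm38.p6, the assembly behind mm10), were found for 6 of the 8 members. Lpl and Lipg had no window. The 3 windows printed here belong to the intracellular lipase that differed between genotypes, its coactivator and a secreted lipase that increased with time. Capitals mark the motifs searched, on both strands. They were DR1, the direct repeat of the PPAR hexamer with a spacer base that PPARγ and RXR bind, with the fourth base of each hexamer left free, and the hexamer itself, AGGTCA, which reads TGACCT on the other strand. Common core promoter motifs were added, the TATA box as TATAAA, the E-box as CACGTG and the GC box as GGGCGG, which reads CCGCCC on the other strand, with the CCAAT box, which reads ATTGG there. The Pnpla2 window is chr7:141454938-141455237 on the plus strand, the Abhd5 window chr9:122351366-122351665 on the plus strand and the inner of 2 Lipc windows chr9:70934759-70935058 on the minus strand.
Pnpla2: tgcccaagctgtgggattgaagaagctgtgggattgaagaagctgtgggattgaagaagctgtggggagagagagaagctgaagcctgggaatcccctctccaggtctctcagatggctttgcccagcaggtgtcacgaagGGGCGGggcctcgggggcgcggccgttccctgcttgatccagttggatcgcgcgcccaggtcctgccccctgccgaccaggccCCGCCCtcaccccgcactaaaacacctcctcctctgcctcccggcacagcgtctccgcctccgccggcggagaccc
Abhd5: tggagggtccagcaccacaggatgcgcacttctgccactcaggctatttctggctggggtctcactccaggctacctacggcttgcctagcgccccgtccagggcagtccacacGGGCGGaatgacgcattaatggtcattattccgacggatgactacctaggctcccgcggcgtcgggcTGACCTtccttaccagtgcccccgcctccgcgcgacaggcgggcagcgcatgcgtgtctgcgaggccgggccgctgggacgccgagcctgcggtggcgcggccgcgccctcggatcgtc
Lipc: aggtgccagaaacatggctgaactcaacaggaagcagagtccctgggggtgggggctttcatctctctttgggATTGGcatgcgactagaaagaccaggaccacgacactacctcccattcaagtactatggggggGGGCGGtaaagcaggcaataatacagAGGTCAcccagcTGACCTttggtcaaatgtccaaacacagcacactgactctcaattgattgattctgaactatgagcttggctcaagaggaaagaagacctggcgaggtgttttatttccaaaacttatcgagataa
None of the windows of the 6 members held DR1, which occurs in 0.381% of all 32851 windows and can overlap the AGGTCA hexamer. AGGTCA, present in 16.3% of windows, occurred in Abhd5, where it began 69 bases before the start site in reverse, and in the inner Lipc window, where it began at -88 forward and at -76 in reverse. GGGCGG, present in 35.7% of windows, occurred in all 3 printed windows and was the only motif found in that of Pnpla2, at -109 forward and -26 in reverse. The inner Lipc window also held CCAAT in reverse, a motif of 37.4% of windows. These are matches of letters within short windows and not measured binding.

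The libraries held 16367775 to 27452284 counts. Mitochondrial genes took 4.7% to 6.44% of them. Wild-type replicate 1 at 2 months was the library farthest from its group, with a chi-square per gene of 28.7 and 25 against its fellows. Results at 2 months are therefore also given without it where they change. Wild-type replicates 2 and 3 at 5 months were the closest pair, at 2.35, and the remaining pairs gave 8.61 to 15.9. If those 2 libraries are not independent, the spread of wild-type at 5 months may be understated. Genes called between genotypes at 5 months, 2602, were 1601 without replicate 2, 1593 without replicate 3 and 3078 without replicate 1 of wild-type. The 10 hepatocyte markers summed to 60500 to 92000 CPM (normalized counts scaled to a common library size) and were present in every library. Counts of Pparg itself were 38.8, 41.4 and 37.6 CPM in wild-type and 50.4, 66.5 and 52 CPM in PPARγ-KO libraries at 2 months, and 36.9, 41.4 and 37.1 against 86.5, 92.9 and 75 CPM at 5 months. The targeted gene was thus higher, not lower, in every library labelled PPARγ-KO. A count over the whole gene includes exons outside the floxed part and does not check the deletion. The study also examined the protein, which is not analysed here, and the genotypes are given as labelled.

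At 2 months the libraries labelled PPARγ-KO held less Pnpla2 and less Lpl than wild-type, by 1.54-fold and 1.58-fold. At 5 months Lpl was 2.53-fold lower, and no other member passed the test. By the quasi-likelihood test of edgeR, adjusted over all genes by Benjamini and Hochberg, 2 of 8 members were called at 2 months, both lower, where 3.56% of 14573 genes were called. At 5 months 1 of 8 was called, where 18.4% of 14138 genes were called. The median log2 fold change of the 8 members was -0.21 at 2 months and 0.06 at 5 months, and that of all genes tested -0.0048 and -0.0058. The groups did not overlap for 3 members at either time (Pnpla2, Lpl and Lipc at 2 months, Pnpla2, Lpl and Lipa at 5 months), where 24.1% and 34.8% of all genes had groups that did not overlap.

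**Figure D1:**
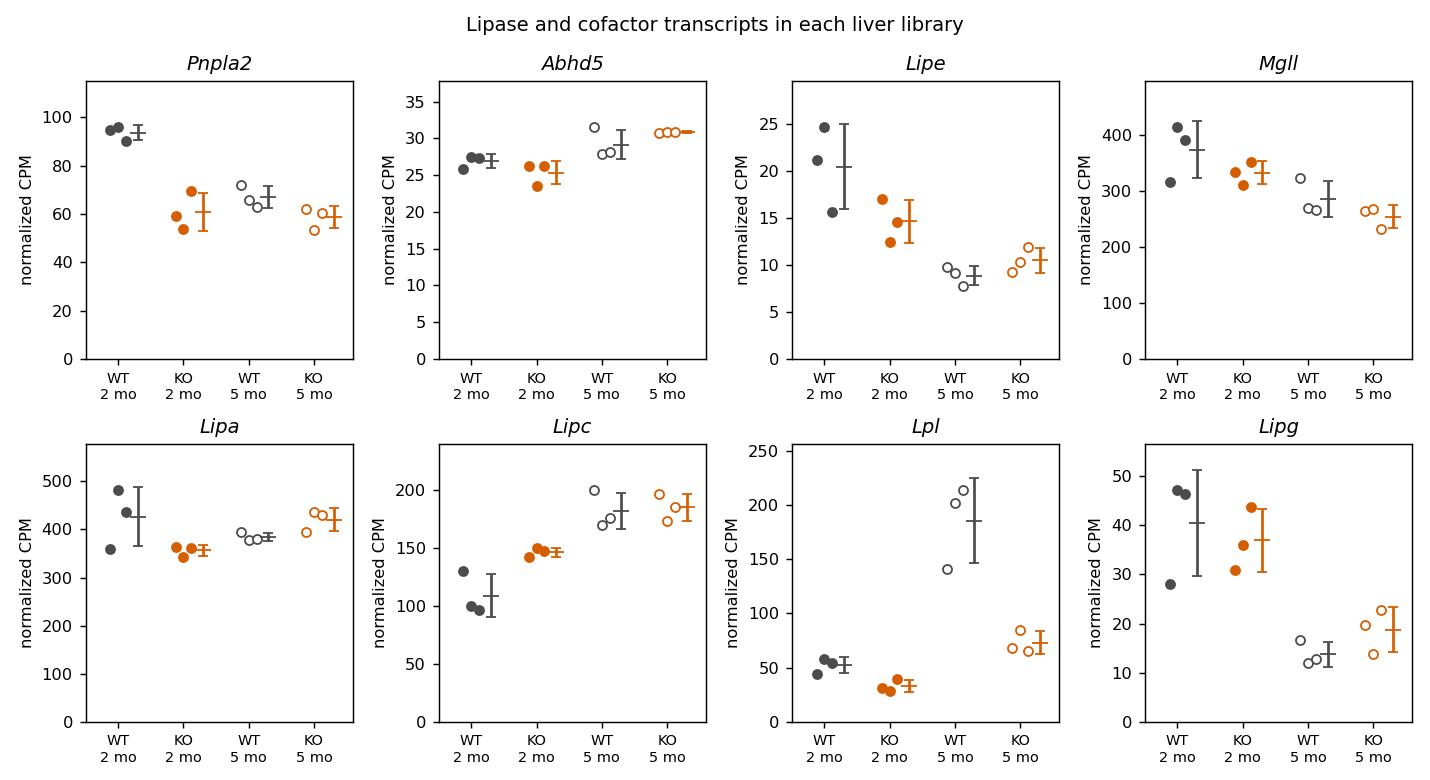
Normalized CPM (vertical axes, from 0) of the 8 members in each library, with 3 points per group for wild-type (WT, grey) and PPARγ-KO (KO, orange) at 2 months (filled) and 5 months (open) of FFD, and a bar for the mean and SD. Lpl in wild-type at 5 months, between 141 and 214 CPM, lies above every other group, and Pnpla2 in wild-type at 2 months, between 90 and 95.8 CPM, lies above every other library.

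Pnpla2, which opens lipolysis at the droplet, lies on chromosome 7 from 141455198 to 141460743 on the plus strand (mm10, 1-based, as in the deposited tables). It measured 94.9, 95.8 and 90 CPM in the 3 wild-type libraries at 2 months and 59.1, 53.9 and 69.4 CPM in the PPARγ-KO libraries. All PPARγ-KO libraries lay below all wild-type ones, and the wild-type libraries were close to each other. The log2 fold change was -0.62 (edgeR adjusted p = 0.00963, SE 0.0925). Without PPARγ-KO replicate 1 the edgeR adjusted p was 0.0551. At 5 months wild-type libraries held 72.1, 65.9 and 63 CPM and PPARγ-KO libraries 61.9, 53.4 and 60.4 CPM. The groups still did not overlap, but the log2 fold change of -0.18 (95% interval -0.35 to -0.02) gave an edgeR adjusted p of 0.114. With scaling by library size alone it was -0.25 with an edgeR adjusted p of 0.0294. That setting also moved the median of all genes down, from -0.0058 to -0.073.

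Between 2 and 5 months Pnpla2 fell in wild-type, by 0.48 on the log2 scale (SE 0.0744), with an edgeR adjusted p of 0.000421 and every 5-month library below every 2-month one. In PPARγ-KO the log2 difference between times was -0.059 (95% interval -0.27 to 0.15, edgeR adjusted p = 0.645), and the libraries of the 2 times overlapped. The knockout effect at 5 months minus that at 2 months was 0.43 (SE 0.125) with an unadjusted p of 0.0037 and an adjusted p of 0.104 in edgeR's fit of all 12 libraries, so a difference between the 2 genotypes' time courses was not called.

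Abhd5, the coactivator of adipose triglyceride lipase, lies on chromosome 9 from 122351608 to 122381524 on the plus strand and varied little, with an SD of at most 6.86% of its group mean. It measured 25.8, 27.5 and 27.4 CPM in wild-type and 26.3, 23.5 and 26.2 CPM in PPARγ-KO at 2 months. The values were 31.5, 27.9 and 28.1 against 30.7, 30.9 and 30.9 CPM at 5 months. The genotypes overlapped at both times, with log2 fold changes of -0.086 (95% interval -0.28 to 0.10, edgeR adjusted p = 0.646) and 0.092 (95% interval -0.065 to 0.25, edgeR adjusted p = 0.438). Over time it rose by 0.28 in PPARγ-KO (edgeR adjusted p = 0.0103, SE 0.0747). The wild-type difference over time was 0.12 with an edgeR adjusted p of 0.291, although its 2 times did not overlap.

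The coactivator was higher relative to its enzyme in PPARγ-KO at both times. Per base of the gene length given in the deposited tables, the ratio of Abhd5 to Pnpla2 was 0.138, 0.145 and 0.154 in wild-type at 2 months. In PPARγ-KO it was 0.226, 0.221 and 0.191 at that time, with no overlap. At 5 months it was 0.221, 0.215 and 0.226 in wild-type and 0.251, 0.294 and 0.259 in PPARγ-KO, again without overlap. The group means were 0.146 ± 0.00822, 0.213 ± 0.0185, 0.221 ± 0.00547 and 0.268 ± 0.0225 (SD, n = 3 libraries). These are ratios of RNA, given as values without a test, and their size depends on the gene lengths used. Abhd5 itself overlapped between genotypes at both times. The ratio is therefore not a result separate from that of Pnpla2, whose difference at 5 months was not called.

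Lipe, hormone-sensitive lipase, lies on chromosome 7 from 25379527 to 25398710 on the minus strand. The antisense gene 4732471J01Rik covers all of it and had 0 to 48 counts per library. The strand setting of the counting is not stated, so reads of the 2 genes cannot be told apart. Lipe measured 21.1, 24.6 and 15.6 CPM in wild-type and 17, 12.4 and 14.5 CPM in PPARγ-KO at 2 months. The groups overlapped, and the log2 fold change of -0.48 (SE 0.177) gave an edgeR adjusted p of 0.187. At 5 months the values were 9.72, 9.09 and 7.72 CPM in wild-type and 9.29, 10.3 and 11.9 CPM in PPARγ-KO, with a log2 fold change of 0.25 (edgeR adjusted p = 0.23, SE 0.135). Over time Lipe fell by 1.21 in wild-type (edgeR adjusted p = 0.000296, SE 0.17) and by 0.49 in PPARγ-KO (edgeR adjusted p = 0.0128, SE 0.136), and in neither genotype did the times overlap. The second of these calls was lost without PPARγ-KO replicate 1 of 2 months (edgeR adjusted p = 0.0598) or of 5 months (edgeR adjusted p = 0.0607).

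Lipe is best known from fat cells, so adipocyte markers were examined beside it. Of the 8 markers, Lep had 0 counts in every library, Adipoq 0 to 1 and Plin1 0 to 2. The summed level of the list was 5.97 to 36.2 CPM in wild-type and 5.3 to 7.3 CPM in PPARγ-KO at 2 months, and 10.4 to 12 against 2.05 to 3.54 CPM at 5 months. In wild-type much of it was Cfd, complement factor D, with 599, 70 and 98 counts at 2 months and 120, 115 and 118 at 5 months. Cfd had 0 counts in all 6 PPARγ-KO libraries. There most of the sum was Adrb3, the β3-adrenergic receptor, at 6.88, 4.96 and 5.54 CPM at 2 months and 2.88, 1.28 and 1.83 CPM at 5 months. Wild-type replicate 1 at 2 months, with the 599 counts, had 21.1 CPM of Lipe, between its fellows.

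Mgll, which cleaves monoglycerides, lies on chromosome 6 from 88724412 to 88828360 on the plus strand, and shares 1449 bases with the antisense gene Gm26588 (107 to 365 counts), with the same limit. Its levels were 316, 413 and 390 CPM in wild-type and 333, 311 and 352 CPM in PPARγ-KO at 2 months. The values were 322, 269 and 265 against 264, 267 and 231 CPM at 5 months. Genotypes overlapped at both times, with log2 fold changes of -0.17 (edgeR adjusted p = 0.44) and -0.16 (edgeR adjusted p = 0.243). Over time Mgll fell by 0.39 in wild-type (edgeR adjusted p = 0.0172, SE 0.114) and by 0.39 in PPARγ-KO (edgeR adjusted p = 0.0012, SE 0.0717). The wild-type times overlapped, and that call was lost in 4 of the 6 fits that left out a library, with edgeR adjusted p from 0.061 to 0.0853 without replicates 2 or 3 of either time. Without wild-type replicate 1 at 2 months, the genotype difference at 2 months was called, at -0.27 (edgeR adjusted p = 0.036).

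Lipa, lysosomal acid lipase, lies on chromosome 19 from 34492318 to 34527474 on the minus strand and had the highest level of the 8 genes. It measured 360, 482 and 437 CPM in wild-type and 364, 343 and 362 CPM in PPARγ-KO at 2 months, when the lowest wild-type library lay within the PPARγ-KO range. The log2 fold change was -0.26 (edgeR adjusted p = 0.219, SE 0.106). Without that lowest library, wild-type replicate 1, it was -0.37 (edgeR adjusted p = 0.0074). At 5 months wild-type libraries held 394, 379 and 381 CPM and PPARγ-KO libraries 394, 437 and 431 CPM. The lowest PPARγ-KO value barely exceeded the highest wild-type one, and the log2 fold change of 0.14 (95% interval -0.0043 to 0.29) gave an edgeR adjusted p of 0.176. Lipa rose between the times in PPARγ-KO, by 0.24 (edgeR adjusted p = 0.00909, SE 0.0623), and in wild-type its difference was -0.15 (edgeR adjusted p = 0.268, and -0.26 with 0.0165 without replicate 1 of 2 months).

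Lpl, the lipase that releases fatty acids from circulating triglyceride, lies on chromosome 8 from 68880491 to 68907448 on the plus strand and showed the widest range of fold changes of the 8 genes. Wild-type libraries held 44.3, 58.3 and 54.3 CPM and PPARγ-KO libraries 30.9, 28.4 and 39.5 CPM at 2 months, without overlap. The log2 fold change was -0.66 (SE 0.141) with an edgeR adjusted p of 0.0415. This call was close to the threshold: it was lost when all 12 libraries shared one fit (edgeR adjusted p = 0.0671) and on leaving out wild-type replicate 2 or 3 or PPARγ-KO replicate 1 or 2 (edgeR adjusted p = 0.157, 0.14, 0.149 and 0.106).

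At 5 months Lpl measured 141, 202 and 214 CPM in wild-type and 68.1, 85.1 and 65.7 CPM in PPARγ-KO. The lowest wild-type library lay well above the highest PPARγ-KO one. The log2 fold change was -1.34 (edgeR adjusted p = 0.00682, SE 0.194), and it was called in all 13 alternative analyses, with adjusted p up to 0.0332. Lpl rose with time by 1.83 in wild-type (edgeR adjusted p = 0.000156, SE 0.176), or 3.55-fold, and by 1.14 in PPARγ-KO (edgeR adjusted p = 0.000733, SE 0.148), or 2.2-fold. The difference between the genotype effects at the 2 times, -0.68 (SE 0.264), had an unadjusted p of 0.0271 and an edgeR adjusted p of 0.258 and was not called.

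Macrophages are known to make Lpl, so their markers were set beside it. The summed level of 15 Kupffer cell and macrophage markers was 561 to 753 CPM in wild-type and 609 to 691 CPM in PPARγ-KO at 2 months, and 1630 to 1900 against 859 to 1050 CPM at 5 months. None of the 15 was at 0 in any group. In the genotype comparison at 2 months 1 marker was higher (Timd4, 0.87) and 2 were lower (Trem2, -1.60, and Itgax, -1.21), where 1.78% of all genes were higher and 1.78% lower. Of the 15, 7 lay above 0 and 8 below. Gpnmb, at -2.57, was not called (edgeR adjusted p = 0.138), although its groups did not overlap. At 5 months 12 were lower and none higher, with a median log2 fold change of -0.88, where 9.51% of all genes were lower. From 2 to 5 months 13 rose in wild-type, where 23.8% of all genes rose. In PPARγ-KO 9 rose and 2 fell, where 22.7% of all genes rose and 22.2% fell. In whole liver RNA, fewer cells of a type and less RNA per cell cannot be told apart.

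Relative to these markers, Lpl was 7.91, 7.74 and 8.49 CPM per 100 CPM of the markers in wild-type at 2 months. In PPARγ-KO it was 4.48, 4.67 and 5.82 at that time, when the summed markers overlapped between genotypes and Lpl did not. The sum mostly follows the abundant markers. In wild-type at 2 months Cd5l averaged 169 CPM, against 14.9 for Gpnmb, 8.52 for Itgax and 4.13 for Trem2. At 5 months the ratio was 8.61, 10.7 and 11.3 in wild-type and 7.72, 8.07 and 7.65 in PPARγ-KO, so that the genotypes still did not overlap but lay closer than in Lpl itself. The part of the macrophage markers in the Lpl differences was not tested. The genes whose levels over the 12 libraries were most like those of Lpl, among 13170 genes, were Tyrobp, a signaling adaptor of myeloid cells (root mean square difference of 0.21 between centred log2 CPM), and Basp1 (0.22). Tyrobp measured 12.7 ± 1.22 and 9.95 ± 0.986 CPM in wild-type and PPARγ-KO at 2 months and 44.6 ± 7.08 and 20.3 ± 0.588 CPM at 5 months (SD, n = 3 libraries).

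**Figure D2:**
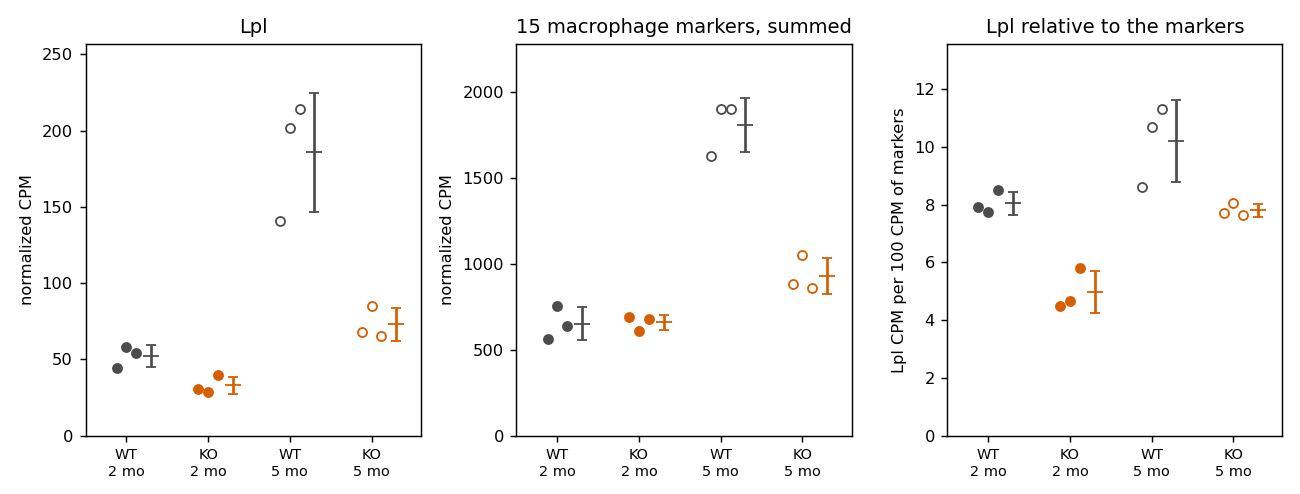
Lpl (left, CPM), the sum of 15 Kupffer cell and macrophage markers (middle, CPM) and Lpl per 100 CPM of those markers (right) in each library, by genotype and time, with a bar for the mean and SD of the 3 libraries in a group. At 2 months the marker sums of the genotypes overlap between 561 and 753 CPM while Lpl does not, and at 5 months both are higher in wild-type.

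Lipc, hepatic lipase, is made by hepatocytes. Its gene lies on chromosome 9 from 70798128 to 70952226 on the minus strand. It measured 130, 99.6 and 96.2 CPM in wild-type and 142, 150 and 147 CPM in PPARγ-KO at 2 months. All PPARγ-KO libraries lay above wild-type, but the log2 fold change of 0.43 (SE 0.109) did not pass, with an edgeR adjusted p of 0.0654. With the replicate number as a block it was 0.44 with an edgeR adjusted p of 0.0387, though no label says that the numbers pair libraries. On leaving out wild-type replicate 1 it was 0.58 (edgeR adjusted p = 0.000352). It was also called by DESeq2 (adjusted p = 0.0166) and in a fit of all 12 libraries (edgeR adjusted p = 0.0156). Of the 13 alternative analyses 5 called it and 8 did not, with an edgeR adjusted p of up to 0.244. At 5 months the values were 200, 170 and 176 CPM in wild-type and 197, 173 and 185 CPM in PPARγ-KO, which overlapped (0.037, 95% interval -0.13 to 0.20, edgeR adjusted p = 0.787). The sign of this small value depended on the scaling, being -0.028 with library size alone.

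Over time Lipc rose by 0.74 in wild-type (edgeR adjusted p = 7e-04, SE 0.119) and by 0.34 in PPARγ-KO (edgeR adjusted p = 0.00109, SE 0.0619), and the times did not overlap in either genotype. The genotype effect at 5 months minus that at 2 months was -0.40 (SE 0.141), with an unadjusted p of 0.0114 and an edgeR adjusted p of 0.172. Beside these values, the summed hepatocyte markers were 62100 to 72900 CPM in wild-type and 79100 to 91000 CPM in PPARγ-KO at 2 months, and 60500 to 66000 against 80800 to 92000 CPM at 5 months. Most of this sum was Alb, albumin, at 44900 CPM in wild-type and 57700 CPM in PPARγ-KO at 2 months and 36900 against 57100 CPM at 5 months (group means). Of the 10 markers, 0 were called between genotypes at 2 months and 2 at 5 months, Alb and Hnf4a, both higher in PPARγ-KO (edgeR). Of all genes, 3.56% and 18.4% were called at these times. Their part in the Lipc difference was not tested. The 2 profiles nearest to Lipc were Txndc15 (0.066) and Nit2, an omega-amidase (0.074), of which Nit2 was higher in PPARγ-KO at 2 months by 0.44 (edgeR adjusted p = 0.0423, SE 0.0995).

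Lipg, endothelial lipase, which acts mainly on the phospholipids of high-density lipoproteins, lies on chromosome 18 from 74939322 to 74961263 on the minus strand. It varied widely within groups, with an SD of 17.5% to 26.8% of the mean. It measured 28, 47.2 and 46.3 CPM in wild-type and 31, 36 and 43.8 CPM in PPARγ-KO at 2 months, which overlapped (-0.13, edgeR adjusted p = 0.817, SE 0.23). At 5 months it measured 16.7, 11.9 and 12.7 CPM in wild-type and 19.7, 13.7 and 22.8 CPM in PPARγ-KO. These also overlapped, with a log2 fold change of 0.45 (95% interval -0.0045 to 0.91, edgeR adjusted p = 0.166) that was called without PPARγ-KO replicate 2 (0.64, edgeR adjusted p = 0.0106).

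Lipg fell with time in both genotypes, by 1.56 in wild-type (edgeR adjusted p = 0.00149, SE 0.228) and by 0.99 in PPARγ-KO (edgeR adjusted p = 0.0123, SE 0.216), and every 5-month library lay below every 2-month library. The 12 endothelial markers summed to 717 to 848 CPM in wild-type and 726 to 800 CPM in PPARγ-KO at 2 months, and to 510 to 541 and 458 to 477 CPM at 5 months. Of the 12, 8 fell and 1 rose with time in wild-type, and 10 fell and 1 rose in PPARγ-KO, where 22.7% and 22.2% of all genes fell. Between genotypes none was called at 2 months by edgeR and 5 were lower at 5 months, where 9.51% of all genes were lower. None was at 0 in any group, and their part in the decline of Lipg was not tested.

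In wild-type 6 of 8 differed between 5 and 2 months, 2 higher (Lpl and Lipc) and 4 lower (Pnpla2, Lipe, Mgll and Lipg), where 46.4% of 14491 genes were called, and in PPARγ-KO 7 of 8, 4 higher (Lpl, Lipc, Abhd5 and Lipa) and 3 lower (Lipe, Mgll and Lipg), where 44.9% of 14478 genes were called. The times did not overlap for 6 members in wild-type and 7 in PPARγ-KO, beside 56.7% and 55.6% of all genes. With a background this high, nothing is read from these counts about the members as a set. Whether the libraries of the 2 times were prepared and sequenced together is not stated, so time and batch cannot be told apart. The comparisons share libraries, so their calls are not independent of each other. By a looser rule, an unadjusted p under 0.05 with at least 1.3-fold, 6 of 8 members passed over time in wild-type (41.1% of all genes) and 4 of 8 in PPARγ-KO (36.0%), and 4 of 8 between genotypes at 2 months (11.0%) and 1 of 8 at 5 months (17.0%).

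In the test of the genotype effect at 5 against 2 months, 0 of 8 members were called by edgeR, where 1.57% of 15127 genes were, and 0 of 8 by DESeq2. At an unadjusted p under 0.05 there were 5 of 8 in edgeR, all of at least 1.3-fold (10.3% of all genes), namely Pnpla2, Lipc and Lpl, which are described above, with Lipe (0.72, edgeR adjusted p = 0.145, SE 0.235) and Lipa (0.39, edgeR adjusted p = 0.142, SE 0.127).

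**Figure D3:**
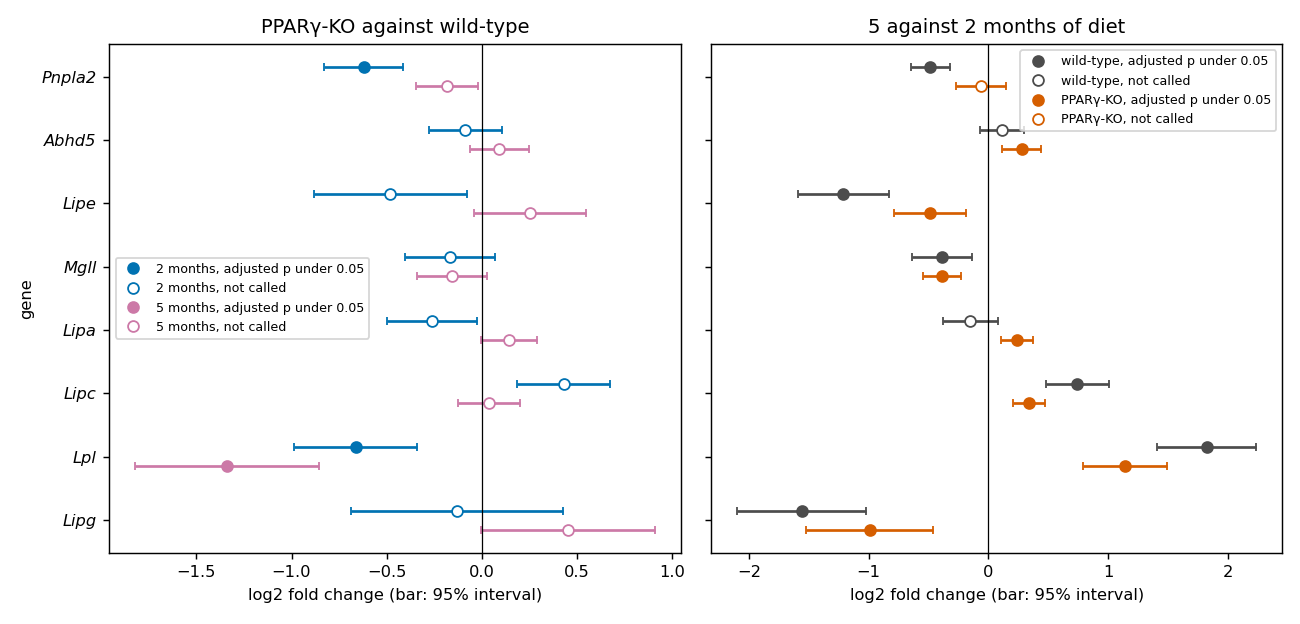
Log2 fold change (horizontal axes) of each member with its 95% interval, for PPARγ-KO against wild-type at 2 and 5 months (left) and for 5 against 2 months in each genotype (right). Filled points have an edgeR adjusted p under 0.05, 2 at 2 months and 1 at 5 months on the left and 6 in wild-type and 7 in PPARγ-KO on the right.

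Levels of different genes were compared per kilobase of the gene length given in the deposited tables. In wild-type at 2 months the means were, in CPM per kilobase, 144 for Lipa, 73.4 for Mgll, 50.5 for Lipc, 31 for Pnpla2, 10.7 for Lipg, 4.99 for Lpl, 4.51 for Abhd5 and 3.47 for Lipe. Only Lpl and Abhd5, neighbours in that order, overlapped. The enzyme Pnpla2 thus stood well above its coactivator, and Lipa above 98.1% of all genes tested. The upper and lower ends of the order, Lipa and Lipe, were the same in all 4 groups.

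Lpl and Lipg exchanged places in that order. In wild-type at 5 months Lpl was at 17.7 CPM per kilobase, next below Pnpla2, and Lipg at 3.64, next above Lipe, without overlap with their neighbours. In PPARγ-KO at 5 months Lpl was at 6.96, above Abhd5 at 5.18 and Lipg at 4.95, of which the last 2 overlapped. Lipc stood above Mgll at 5 months in wild-type (84.6 against 56.2) and in PPARγ-KO (86.2 against 50.1), whereas in PPARγ-KO at 2 months the pair overlapped (68 against 65.4), as did Lpl and Lipe (3.15 against 2.49).

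**Figure D4:**
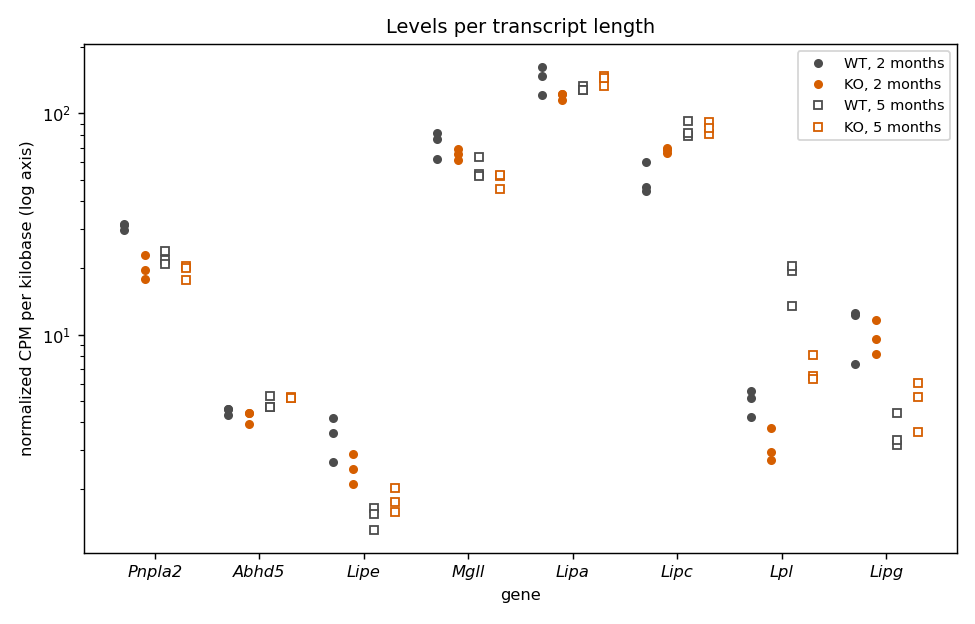
Normalized CPM per kilobase of gene length (log axis) of the 8 members in each of the 12 libraries, by genotype and time. Lipa is highest and Lipe lowest in every group, and Lpl in wild-type at 5 months, with a mean of 17.7 CPM per kilobase, lies nearest to Pnpla2.

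Genes that act on these lipases were read from 4 lists, of which the droplet lipolysis regulators held the largest differences. The lists were chosen with earlier results of these data known, so the counts called in them are descriptive and no test of a list. Of 15 tested (Plin1 was too low), 3 were lower and none higher in PPARγ-KO at 2 months, where 1.78% of all genes were lower, and 5 were lower and 1 higher at 5 months, where 9.51% were lower and 8.90% higher. Cidec, which enlarges droplets by fusion, measured 99.8, 177 and 172 CPM in wild-type and 13.4, 7.52 and 10 CPM in PPARγ-KO at 2 months. The values were 148, 142 and 141 against 26.5, 22 and 17.2 CPM at 5 months. Its log2 fold changes were -3.85 (edgeR adjusted p = 0.0117, SE 0.341) and -2.70 (edgeR adjusted p = 2.91e-06, SE 0.129). The droplet coat proteins Plin4 (-3.54, edgeR adjusted p = 0.00963, SE 0.322) and Plin2 (-0.73, edgeR adjusted p = 0.011, SE 0.113) were lower at 2 months, and at 5 months Plin4 was lower by a log2 of -2.47 and Plin2 of -0.75. The median over the list was -0.22 at 2 months and -0.0093 at 5 months. The count of 3 at 2 months was 1 without PPARγ-KO replicate 3.

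Both inhibitors of adipose triglyceride lipase were lower in PPARγ-KO at 5 months. G0s2 measured 125, 106 and 107 CPM in wild-type and 79.5, 78.8 and 86.4 CPM in PPARγ-KO (-0.45, edgeR adjusted p = 0.00104, SE 0.0749). Hilpda measured 7.29, 7.93 and 6.73 CPM against 4.1, 4.05 and 4.04 CPM (-0.84, edgeR adjusted p = 0.00195, SE 0.151). At 2 months G0s2 ranged from 90.2 to 213 CPM in wild-type and from 43.1 to 107 CPM in PPARγ-KO, with overlap (-1.07, edgeR adjusted p = 0.354, SE 0.494), and Hilpda gave -0.29 (edgeR adjusted p = 0.632). The knockout effect of neither differed between the times by the test (edgeR adjusted p = 0.658 for G0s2 and 0.425 for Hilpda). The catalytic kinase subunit Prkacb, of the kinase that phosphorylates hormone-sensitive lipase and perilipins, was higher at 5 months by 0.22 (edgeR adjusted p = 0.038, SE 0.066). The other listed subunits of that kinase were not called at 5 months. They were Prkaca (0.063, edgeR adjusted p = 0.611), Prkar1a (-0.0093, edgeR adjusted p = 0.936) and Prkar2a (0.0083, edgeR adjusted p = 0.942).

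Among 16 partners of the plasma lipases, 1 was higher at 2 months and 5 were higher at 5 months, and none was lower at either time, where 1.78% and 8.90% of all genes were higher. Apoc3, an apolipoprotein that restrains lipoprotein lipase, was higher at both times (0.39, edgeR adjusted p = 0.0469, SE 0.0902, and 0.27, edgeR adjusted p = 0.0433, SE 0.0858). Angptl4, a secreted inhibitor of lipoprotein lipase, measured 115, 88.9 and 90.8 CPM in wild-type and 152, 117 and 157 CPM in PPARγ-KO at 5 months (0.54, edgeR adjusted p = 0.0316, SE 0.138), and at 2 months its groups overlapped (0.25, edgeR adjusted p = 0.765, SE 0.347). Apoa4 (0.58, edgeR adjusted p = 0.00454) and the protease Furin (0.32, edgeR adjusted p = 0.00749) were also higher at 5 months, as was Sel1l, which serves in the folding of lipoprotein lipase, although its groups overlapped (0.31, edgeR adjusted p = 0.0245).

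Other partners that act directly on lipoprotein lipase were not called between genotypes. Gpihbp1, which carries the enzyme to the capillary surface, gave -0.11 at 2 months and -0.12 at 5 months (edgeR adjusted p = 0.553 and 0.313). Lmf1, a maturation factor, gave 0.15 and -0.022 (edgeR adjusted p = 0.466 and 0.868). The inhibitor Angptl8 (-0.20 and 0.66, edgeR adjusted p = 0.917 and 0.0926), the activator Apoc2 (-0.19 and 0.45, edgeR adjusted p = 0.728 and 0.374) and Apoa5 (0.15 and -0.21, edgeR adjusted p = 0.55 and 0.149) did not pass. The median of the list was 0.094 at 2 months and 0.15 at 5 months. The count of 5 at 5 months was 1 without wild-type replicate 2 or 3, 3 without PPARγ-KO replicate 1 or 3, and the count of 1 at 2 months was 5 without wild-type replicate 1 and 0 without any other library. Without wild-type replicate 1 at 2 months, 1577 of 14925 genes were called in all.

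Of 17 lysosomal genes, which work beside Lipa, 0 were called at 2 months by edgeR, where 3.56% of all genes were called. DESeq2 called 1 of them, and 988 of 14573 genes in all. Without wild-type replicate 1 edgeR called 4 of them, and 1577 of 14925 genes in all. At 5 months 6 were lower and 1 higher, where 9.51% of all genes were lower and 8.90% higher. The largest differences among those called were in Tfeb, a regulator of lysosomal genes (-0.45, edgeR adjusted p = 0.0168, SE 0.116), Psap, the saposin precursor (-0.44, edgeR adjusted p = 0.000633, SE 0.0673), and the protease Ctsd (-0.44, edgeR adjusted p = 0.00121, SE 0.0736). Npc1, which exports cholesterol from the lysosome, was the gene that was higher (0.29, edgeR adjusted p = 0.00376, SE 0.0578). The median of the list was -0.09 at 2 months and -0.13 at 5 months. Lysosomal genes are abundant in macrophages, whose markers were lower in the same libraries at 5 months, and the part of those cells was not tested.

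Of 17 other hydrolases of acylglycerols and cholesteryl esters, 1 was higher and 2 lower at 2 months, where 1.78% of all genes were higher and 1.78% lower. At 5 months 3 were higher and 4 lower, where 8.90% of all genes were higher and 9.51% lower. Abhd6, a monoacylglycerol hydrolase, measured 38.7, 51.4 and 53.8 CPM in wild-type and 30.4, 29 and 29.9 CPM in PPARγ-KO at 2 months (-0.69, edgeR adjusted p = 0.0173, SE 0.117) and was lower at 5 months too (-0.45, edgeR adjusted p = 0.00574, SE 0.095). Nceh1, a cholesteryl ester hydrolase, was lower at both times (-0.57, edgeR adjusted p = 0.0195, and -0.31, edgeR adjusted p = 0.016). The carboxylesterase Ces1c was higher at both (0.56, edgeR adjusted p = 0.0315, and 0.48, edgeR adjusted p = 0.00389). At 5 months Pnpla3, a relative of Pnpla2 that also binds ABHD5, was higher (1.07, edgeR adjusted p = 0.0488, SE 0.313), with Ces2c (0.74, edgeR adjusted p = 0.0112). The carboxylesterases Ces2a (-0.45, edgeR adjusted p = 0.000512) and Ces3a (-0.45, edgeR adjusted p = 0.011) were lower at that time, so this family did not move in one direction. Carboxylesterase genes are close paralogs, and reads shared between them make their values uncertain. The median was 0.11 at 2 months and -0.091 at 5 months, and the 2-month count of 3 ranged from 0, without wild-type replicate 2 or 3, to 7, without wild-type replicate 1, and was 1 without PPARγ-KO replicate 1 or 2. All genes called at 2 months were 117 without wild-type replicate 2, 150 without replicate 3 and 1577 without replicate 1. The 5-month count of 7 was 4 without PPARγ-KO replicate 3.

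**Figure D5:**
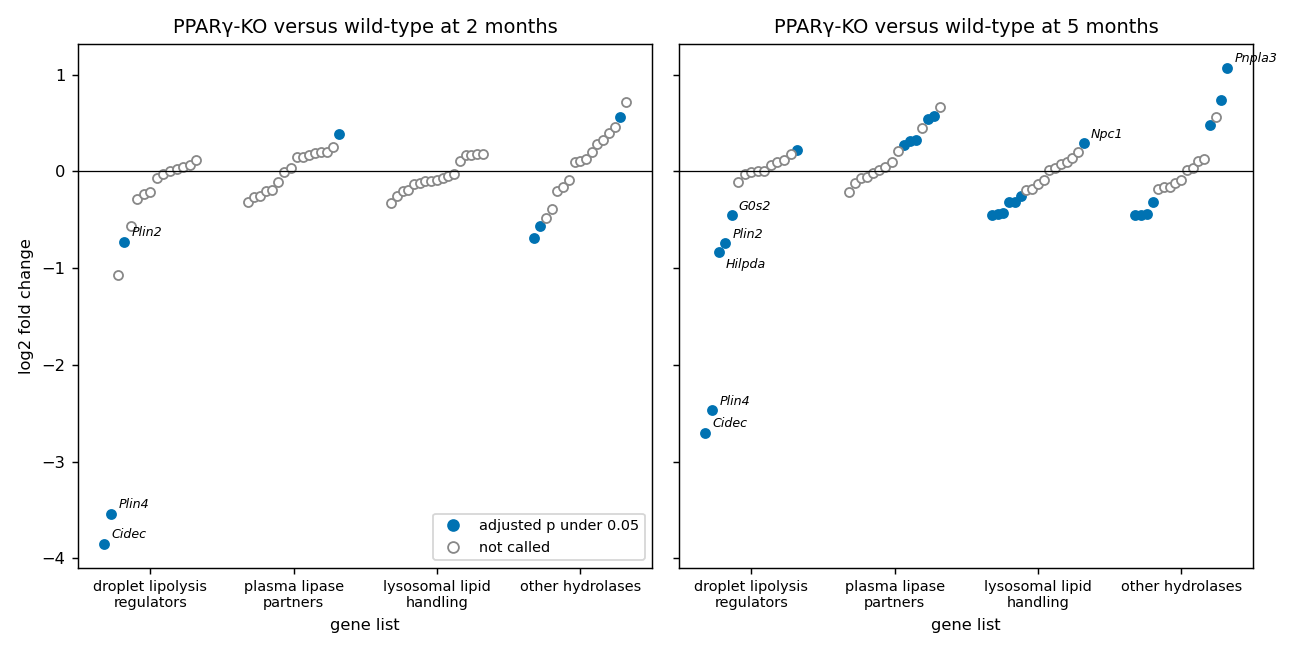
Log2 fold change (vertical axis) of each tested gene of the 4 lists between PPARγ-KO and wild-type at 2 months (left) and 5 months (right), with genes in order of fold change within a list and filled points for an edgeR adjusted p under 0.05. Cidec and Plin4 lie lowest at both times, and among plasma lipase partners filled points lie above 0 only.

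In none of the 4 lists was a gene called for a difference of the knockout effect between the times (edgeR). Over time, 7 of 15 droplet regulators were higher and 2 lower in wild-type, and 8 were higher and 2 lower in PPARγ-KO. Of 17 lysosomal genes, 9 were higher and 2 lower in wild-type, and 11 were higher and 4 lower in PPARγ-KO. Plasma lipase partners gave 4 higher and 4 lower in wild-type and 5 higher and 3 lower in PPARγ-KO. The other hydrolases gave 1 higher and 6 lower in wild-type and 0 higher and 5 lower in PPARγ-KO. Of all genes tested, 23.8% were higher and 22.7% lower over time in wild-type, and 22.7% and 22.2% in PPARγ-KO.

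Beyond Lpl and Lipc, the profiles nearest to each member, by the root mean square difference of centred log2 CPM over 12 libraries, belonged to genes of varied function. Pnpla2 lay nearest to Decr2, a peroxisomal enzyme of fatty acid oxidation (0.12), and Arhgef40 (0.12). Decr2 gave a log2 of -0.36 at 2 months (edgeR adjusted p = 0.102) and was lower in PPARγ-KO at 5 months, by -0.31 (edgeR adjusted p = 0.0198, SE 0.0827). Arhgef40 was lower in PPARγ-KO at 2 months by a log2 of -0.56 (edgeR adjusted p = 0.0157, SE 0.0938) and gave -0.15 at 5 months (edgeR adjusted p = 0.371). Lipe lay nearest to E430024I08Rik (0.17) and Miga2, a protein of the mitochondrial surface (0.18). Miga2 measured 140 ± 20 and 116 ± 8.99 CPM at 2 months and 69.9 ± 6.87 and 87.3 ± 4.31 CPM at 5 months in wild-type and PPARγ-KO (SD, n = 3 libraries). The nearest to Mgll were Bcl2l13 (0.091) and Focad (0.094), to Lipg Impg2 (0.23) and Pdzd2 (0.24), to Abhd5 Pmpca, a mitochondrial processing peptidase (0.043), and Bdh1, an enzyme of ketone body metabolism (0.054), and to Lipa Grina (0.067) and Adh1, alcohol dehydrogenase (0.07). These distances describe likeness over the same 12 libraries, which share their scaling, and carry no test.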

How the data were processed

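Total RNA of liver was sequenced by a company as 12 libraries, and for each library the authors deposited whole-number counts of reads per gene, not normalized, with gene coordinates on mm10. The study's methods name STAR as the aligner, whereas the submitters' processing notes name HISAT2. The counter, the annotation release and the strand setting are not given in the sources used here. Groups came from the sample labels, which also number the replicates 1 to 3.

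Counts were tested by gene identifier in R 4.3.3 with edgeR 4.0.16 (filterByExpr, TMM scaling, robust quasi-likelihood fit, two-sided test, Benjamini-Hochberg adjustment over all genes tested, threshold 0.05). Each comparison was fitted on its own 6 libraries, and the difference of knockout effects on all 12. Log2 fold changes come from these fits and printed CPM from one TMM scaling of the 12 libraries, and the SE is the fold change divided by the square root of F. Depth limits precision: counts of 148 or more stand behind every value of a member. Alternatives were DESeq2 1.42.0, other scalings and filters, one fit of all libraries, a replicate block, an unadjusted p under 0.05 with 1.3-fold, and leaving out each library. On simulated counts for the comparison at 2 months, edgeR recovered 20 of 100 genes changed by a log2 of 0.5 and 59 of 100 changed by 1 (14573 genes). At 5 months it recovered 48 and 86 of 100 (14138 genes). Of the calls on these simulated counts, 8.14% by edgeR and 18.9% by DESeq2 were false at 2 months, and 8.22% and 8.9% at 5 months.

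Named genes were the 8 members, Pparg, up to 3 called genes per list and time with the largest change and at least 1 CPM, genes acting directly on a member, and the 2 nearest profiles of each member. The members and lists were chosen with earlier results of these data known. Prkacb and the other kinase subunits, Sel1l, Npc1, Ces2a, Ces3a and the marker genes named were added after their values were seen. Same-numbered libraries deviated together at 2 months (correlations of 0.194, 0.272 and 0.141 over 5000 genes) but not at 5 months (-0.0675, -0.0542 and -0.182), a hint from the data, since no label says what a number marks. A gene that this rule names is not reported here.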

Additional observations from a re-analysis of the deposited data

Results flagged for a closer look

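The knockout effect on Pparg differed between the times, by a log2 of 0.625 (edgeR adjusted p = 0.0432, SE 0.145), as its counts exceeded wild-type by 0.52 at 2 months and 1.15 at 5 months. This call was lost with scaling by library size alone (edgeR adjusted p = 0.0585) and in fits that left out a library (edgeR adjusted p up to 0.122).

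Among the marker lists, 7 of 15 Kupffer cell and macrophage markers had a knockout effect that differed between the times, all lower at 5 months, where 1.57% of all genes were called. They were Clec4f (-1.10), Vsig4 (-1.19), Timd4 (-2.27), Cd5l (-1.04), C1qa (-0.86), C1qc (-0.86) and Csf1r (-0.92). Timd4, a marker of resident Kupffer cells, measured 7.25, 6.64 and 5.63 CPM in wild-type and 12.8, 10.5 and 12.4 CPM in PPARγ-KO at 2 months. At 5 months it measured 6.87, 7.63 and 7.88 CPM in wild-type and 1.93, 4.92 and 1.58 CPM in PPARγ-KO.

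Likewise 2 of 12 endothelial markers differed, Clec4g (-0.77, edgeR adjusted p = 0.00859) and Fcgr2b (-0.58, edgeR adjusted p = 0.0138), both of which mark liver sinusoids. Of the 8 adipocyte markers 3 were tested and 1 differed, Adrb3, the β3-adrenergic receptor that sets off lipolysis in fat cells (-2.11, edgeR adjusted p = 0.0251, SE 0.436). It had 54, 30 and 55 counts in wild-type and 133, 87 and 149 in PPARγ-KO at 2 months. At 5 months it had 45, 84 and 64 in wild-type and 61, 25 and 29 in PPARγ-KO. Dixon's test for an outlying value was not run within groups of 3 libraries.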

How the results depend on the processing

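At 2 months the count of called members, 2, was 4 without a filter and 4 by an unadjusted p under 0.05 with 1.3-fold, 3 with DESeq2 and 3 with the replicate block, and ran from 0 (without PPARγ-KO replicate 1) to 5 (without wild-type replicate 1). All genes called there, 519, became 988 with DESeq2, 817 with the replicate block, 1153 with all 12 libraries in one fit, 1562 without a filter, and 117 to 1577 on leaving out a library. At 5 months the count of 1 was 2 with library size alone, 2 without a filter and 2 with the replicate block (which added Lipg at 0.44, edgeR adjusted p = 0.0458), and 1 to 2 on leaving out a library. All genes called at 5 months, 2602, became 2783 with library size alone, 3015 without a filter, 2303 with the replicate block and 1593 to 3078 on leaving out a library. Same-numbered libraries did not deviate together at 5 months, and no label says that they are pairs. Over time the counts ran from 5 to 7 in wild-type and from 6 to 7 in PPARγ-KO on leaving out a library, with 4 in PPARγ-KO by the unadjusted rule. On leaving out a library, all genes called over time ran from 5357 to 6968 in wild-type and from 5374 to 6024 in PPARγ-KO. By the unadjusted rule 5210 genes passed in PPARγ-KO. The count of 0 for the difference of knockout effects was 4 without a filter, 5 by the unadjusted rule and 0 to 2 on leaving out a library. All genes called for that difference, 238, became 793 of 28715 without a filter, 1563 by the unadjusted rule and 83 to 567 on leaving out a library. The block changed no other call of a member. With library size alone the median of all genes over time in wild-type was -0.0929, against -0.0128 with TMM, and the split at 2 months was 171 higher and 349 lower, against 259 and 260, and at 5 months 889 and 1894, against 1258 and 1344.

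Signs changed only where values were small. Lipc at 5 months was -0.0283 with library size alone and -0.00711 to 0.107 on leaving out a library. On the same basis Pparg over time in wild-type ran from -0.08 to 0.00666 and Pnpla2 over time in PPARγ-KO from -0.138 to 0.049. The difference of knockout effects on Mgll was -0.00433 with DESeq2, -0.00438 with its size factors, -0.00864 without a filter, -0.00381 with the replicate block, and -0.0782 to 0.112 on leaving out a library. The causes were not tested. The calls of Lpl at 5 months and of Lpl, Lipc and Lipg over time held in the 13 alternatives that give an adjusted p. By the unadjusted rule with 1.3-fold, Lipc over time in PPARγ-KO did not pass. The self-test recovered 8 of 100 differences of knockout effects of a log2 of 0.5 (15127 genes), which limits what the 0 called can show.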

Other observations

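Marker lists of other cell types were also compared between genotypes, and some of their genes were called. Beside them, edgeR called 3.56% of all genes tested at 2 months and 18.4% at 5 months. Marker RNA does not separate the number of cells from the RNA in each cell. Of 11 stellate cell markers, 1 was lower in PPARγ-KO at 2 months and 4 at 5 months, none higher, with summed levels of 616 to 639 against 528 to 549 CPM at 2 months and 777 to 798 against 657 to 708 CPM at 5 months. Of 5 cholangiocyte markers, 5 were tested at 2 months with none called, and 4 at 5 months with 1 higher. Of 4 B cell markers, 2 of the 3 tested were lower at 5 months, with sums of 4.38 to 6 CPM in wild-type and 1.45 to 2.45 CPM in PPARγ-KO. Of 6 neutrophil markers, 1 of the 2 tested at 5 months was lower. None of the 5 T and NK cell markers tested at 5 months was called, although all 5 lay below 0 (at 2 months none was tested, their counts being too low). No myocyte marker passed the filter on low counts, and their sums stayed at or below 0.171 CPM. Of the 10 hepatocyte markers, 2 were higher at 5 months and none was called at 2 months (edgeR), when all 10 lay above 0. Single members of such lists are not independent of each other, since they are measured in the same 12 libraries.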
